A study of Temnothorax rugatulus with 32 samples.

Results

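Contigs named as heat shock proteins or co-chaperones with a best database hit in an ant were followed across the brain and the fat body of old and young queens of the ant Temnothorax rugatulus. The names come from the authors' 2 tables of age differences, which describe 1073 of the 228763 assembled transcript contigs by their best hit. A contig was taken where the name holds heat shock protein, dnaJ homolog or T-complex protein 1 and the hit species is an ant. 7 contigs met this, and the limit of the 10 highest total counts was not reached. 1 more contig carries such a name, dnaJ homolog subfamily A member 2-like, but its hit is the horseshoe crab Limulus polyphemus and its total count over all libraries was 46, so it was left out. All 7 passed the count filter in every test. The study took 16 field-collected queens, 8 labelled old and 8 labelled young, and each queen gave 1 brain and 1 fat body library, so there are 4 groups of 8. The labels give age as a class without years and name no colony, strain or treatment.

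The 7 contigs are heat shock protein beta-1 (TR76103c0_g1_i1, 1037 bases, hit in Pogonomyrmex barbatus), a pair of contigs named heat shock protein 67B2-like (TR54458c0_g1_i1, 1043 bases, and TR54458c0_g1_i3, 908 bases, hits in Solenopsis invicta), dnaJ homolog subfamily B member 6 (TR36505c0_g1_i3, 1626 bases, Acromyrmex echinatior), dnaJ homolog subfamily C member 8 (TR73201c15_g18_i3, 3570 bases, Cyphomyrmex costatus), T-complex protein 1 subunit zeta (TR55468c0_g1_i1, 2344 bases, Vollenhovia emeryi) and T-complex protein 1 subunit beta (TR75775c3_g1_i2, 10764 bases, Atta colombica). The last part of an identifier (i1, i3) names 1 assembled form within a component, the group of contigs that the assembly joined as 1 gene. The pair named 67B2-like shares a component and therefore shares reads, so the set stands for 6 components. The contigs were chosen by their age difference in the authors' tests: both dnaJ contigs are listed for the brain, and the other 5 for the fat body. In the authors' deposited table the adjusted p-values ran from 8.4e-05 for heat shock protein beta-1 to 0.0289 for the form i3 of heat shock protein 67B2-like, the listed contig nearest to the threshold of 0.05. The age difference in the tissue that listed a contig is therefore given as a description with no test. Tests are given for age in the other tissue, for the difference between tissues averaged over both ages, and for the covariation of the 2 tissues of a queen. The other tissue came from the same queens, so its libraries are separate but not its animals.

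Heat shock proteins and their partners keep other proteins folded. Small heat shock proteins, the family of heat shock protein beta-1, hold unfolding proteins without using ATP. DnaJ proteins (J-domain co-chaperones) deliver clients to Hsp70 and switch on its ATPase. T-complex protein 1 subunits build the ring-shaped chaperonin TRiC, also called CCT, which encloses and folds actin and tubulin, and the prefoldin complex hands it those clients. The fat body makes and secretes most haemolymph proteins of an insect, yolk precursors included, and stores its lipid.

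Total counts per library ran from 13861667 to 33461227. The 100 most abundant contigs took 17.2% to 23.7% of the counts of a brain library and 37.1% to 56.5% of those of a fat body library, and the TMM scaling factors were 1.34 to 1.58 in brains and 0.578 to 0.956 in fat bodies. Levels are in CPM, counts set to a common library size, here with TMM scaling over all 32 libraries. The tissue labels were checked on markers. Complexin, a synaptic protein, averaged 142 and 105 CPM in young and old brains against 0.382 and 1.92 CPM in young and old fat bodies. Neuroligin-1-like, another synaptic name, did not separate the tissues, at 152 and 122 CPM in young and old brains against 182 and 117 CPM in the fat bodies. Protein henna, the phenylalanine hydroxylase of the fat body, averaged 24.1 and 159.5 CPM in young and old fat bodies against 4.46 and 5.54 CPM in the brains. Transferrin, another fat body marker, averaged 626 and 4442 CPM in young and old fat bodies against 218 and 290 CPM in the brains. Summed, the fat body markers fell as low as 70.9 CPM in young fat bodies, below the lowest young brain at 117 CPM. That sum therefore did not separate the tissues in young queens. The marker contigs, too, have their names from the 2 age tables.

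Heat shock protein beta-1 was lower in old than in young fat bodies and low in brains of both ages. It stood at 38.1, 66.2 and 140.2 CPM (lowest, median and highest of 8) in young fat bodies and at 14.9, 20.5 and 45.1 CPM in old ones. All 8 old fat bodies lay below the young median and 7 of 8 below every young library, the exception being queen O-269. The fitted log2 difference, old minus young, was -1.66 ± 0.29 (SE), and this contrast chose the contig. In the brains it stood at 7.23, 16.8 and 25.8 CPM in young and 4.29, 15.1 and 21.4 CPM in old queens. The groups overlapped there, and the log2 difference of -0.27 ± 0.35 did not pass the test (edgeR's quasi-likelihood test, adjusted p = 0.9998). In bulk tissue, fewer cells of a type and less RNA per cell cannot be told apart, here and in every result that follows.

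**Figure D1:**
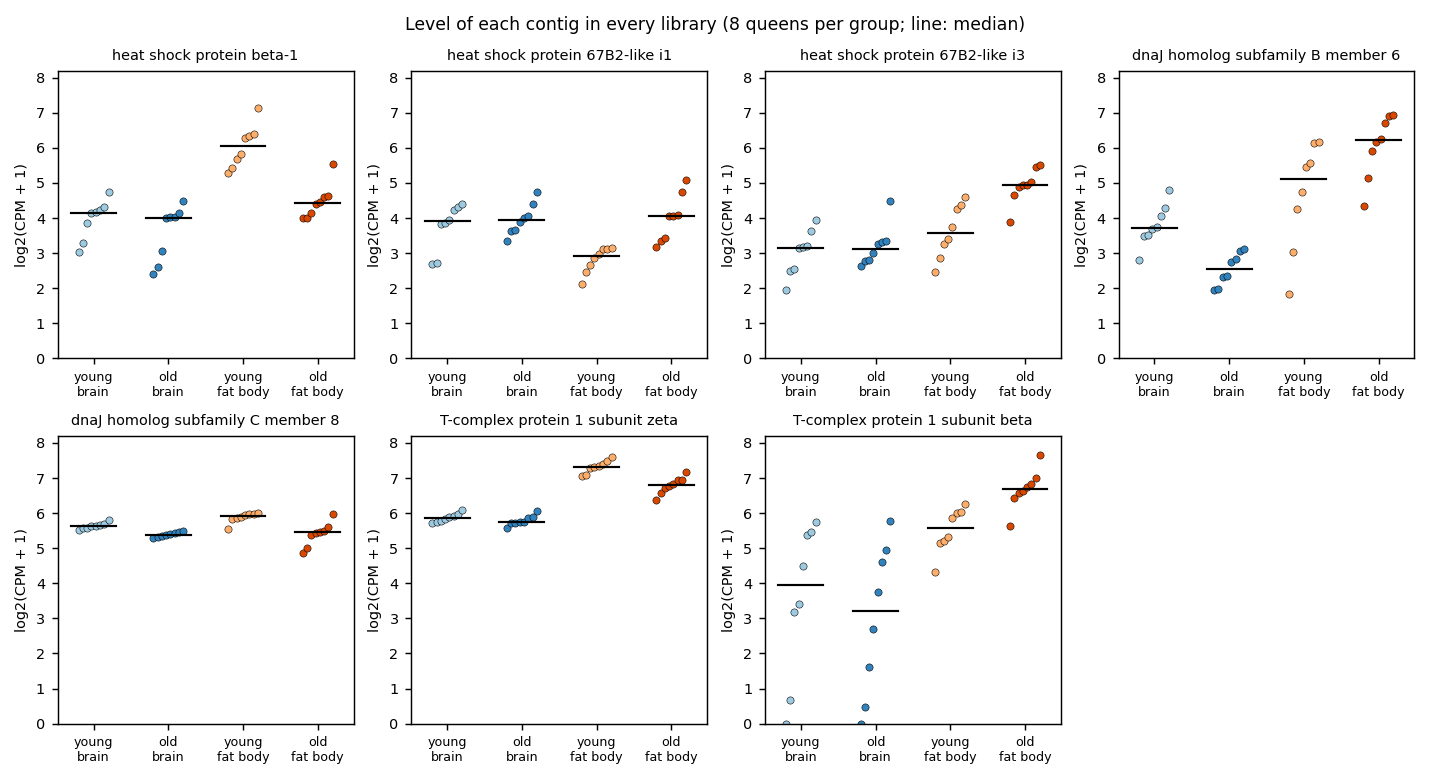
Level of each of the 7 contigs in every library, as log2(CPM + 1), for young brains, old brains, young fat bodies and old fat bodies (8 queens each; points are libraries sorted by value, the line is the median). Heat shock protein beta-1 is highest in young fat bodies (median 66.2 CPM), the 67B2-like form i1 has no overlap between young and old fat bodies, and T-complex protein 1 subunit beta reaches 0 in 1 brain of each age.

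Heat shock protein 67B2-like takes its name from a Drosophila gene in a cluster of small heat shock genes. That name alone does not make the 67B2-like protein a chaperone. Its 2 listed forms were higher in old than in young fat bodies and had similar medians in young and old brains. The form i1 stood at 3.33, 6.56 and 7.90 CPM in young fat bodies and 8.04, 15.7 and 32.6 CPM in old ones, with no overlap. The form i3 stood at 4.50, 10.9 and 23.2 CPM in young and 13.8, 29.7 and 44.5 CPM in old fat bodies, and 7 of 8 old libraries exceeded every young one. The log2 differences that chose them were 1.42 ± 0.31 and 1.26 ± 0.33. In the brain, i1 stood at 5.46, 13.9 and 20.01 CPM in young and 9.24, 14.4 and 25.5 CPM in old queens. The form i3 stood at 2.84, 7.89 and 14.5 CPM in young and 5.19, 7.79 and 21.2 CPM in old brains, so for both forms the brain groups overlapped. Their brain age differences of 0.20 ± 0.29 and 0.25 ± 0.36 did not pass the test (edgeR adjusted p = 0.9998 for each), and that of i3 was -0.09 without the old brain of queen O-603, the highest of its group at 21.2 CPM.

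DnaJ homolog subfamily B member 6 had a lower median in old than in young brains and a higher one in old than in young fat bodies. Its human namesake is known for suppressing the aggregation of polyglutamine proteins. In the brain, the tissue that listed it, it stood at 5.97, 12.2 and 26.6 CPM in young and 2.86, 4.90 and 7.70 CPM in old queens. 5 of 8 old brains lay below every young brain, and the log2 difference was -1.43 ± 0.30. In the fat body it stood at 2.55, 34.4 and 71.1 CPM in young and 19.4, 73.2 and 122 CPM in old queens, so the old median was higher but the ranges overlapped widely. That age difference, 1.09 ± 0.55, comes from libraries that did not choose the contig, though from the same queens. It did not pass the test (edgeR adjusted p = 0.42), and 6 of 8 old libraries lay above the young median. The difference of the 2 age differences was 2.54 ± 0.65, and it contains the brain contrast that chose the contig, so no test is read from it.

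DnaJ homolog subfamily C member 8 is named after a human protein of the spliceosome. It was among the 2 steadiest contigs of the set and had lower medians in old than in young queens in both tissues. In the brain it stood at 44.9, 48.7 and 55.3 CPM in young and 37.8, 40.9 and 44.1 CPM in old queens, with no overlap, and the log2 difference that chose it was -0.22 ± 0.06. In the fat body it stood at 46.1, 59.4 and 63.4 CPM in young and 28.4, 42.7 and 62.2 CPM in old queens. 6 of 8 old fat bodies lay below every young one, and the other 2 lay within the young range. The fat body difference of -0.46 ± 0.15, a test on libraries that did not choose the contig, did not pass in the fit of the 16 fat bodies (edgeR adjusted p = 0.15, unadjusted p = 0.0063). It passed in the fit of all 32 libraries (-0.46, edgeR adjusted p = 0.019). That fit takes 1 dispersion per contig over both tissues and treats the libraries of a queen as separate. The SD of log2 CPM was 0.09 and 0.07 in young and old brains but 0.14 and 0.35 in young and old fat bodies. The difference also passed with library size as the only scaling (-0.76, edgeR adjusted p = 0.028), so the call depends on the fit. With that scaling the median of all contigs was -0.29, against 0.01 with TMM. Relative to that median the value was -0.48, against -0.47 with TMM.

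T-complex protein 1 subunit zeta, 1 of the chaperonin ring subunits, had the highest total count of the set (70829) and is alone in its component. It stood at 133.5, 159.6 and 192 CPM in young fat bodies and 82.4, 111 and 145 CPM in old ones. All 8 old fat bodies lay below the young median, 7 of 8 below every young library, and the log2 difference that chose it was -0.53 ± 0.12. In the brain it stood at 51.8, 56.7 and 66.8 CPM in young and 47.1, 52.7 and 65.5 CPM in old queens. That difference, -0.05 ± 0.09, did not pass the test (edgeR adjusted p = 0.9998), and its error is the smallest among the 5 contigs listed for the fat body.

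The contig named T-complex protein 1 subunit beta was higher in old than in young fat bodies, where the zeta contig was lower. It is 1 form in a component of 15 contigs, while zeta is its whole component. It stood at 19.2, 47.9 and 75.9 CPM in young and 49.0, 101.9 and 200.9 CPM in old fat bodies. 7 of 8 old libraries exceeded every young one, and the log2 difference that chose it was 1.17 ± 0.29. In the brain it ran from 0 to 52.6 CPM in young and from 0 to 53.4 CPM in old queens, with medians of 15.5 and 9.02 CPM. 1 brain of each age held no count for it, O-426 and Y-594, while their fat bodies held 1426 and 975 counts. The brain age difference of -0.41 ± 1.21 did not pass the test (edgeR adjusted p = 0.9998), and an error of that size leaves it undetermined.

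None of the 7 age differences open to a test passed: 0 of 5 in the brain, where edgeR called 0% of 40572 contigs, and 0 of 2 in the fat body, where it called 0.647% of 27664. At an unadjusted p under 0.05 the brain held 1882 contigs, 4.64% of those tested, and none of the 5 was among them. DESeq2 called 560 contigs in the brain and 1205 in the fat body, and again none of these 7 differences. The values that chose the contigs have medians that follow from the choice, so none is read.

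Since reads can be shared among the forms of a component, each contig was set beside the summed counts of its component. The C8 contig held a mean of 98.7% to 99.3% of its component in 3 groups and 88.7% ± 16.6 (SD, n = 8) in old fat bodies, where 1 library was at 54.9%. The C8 component differed with age by -0.23 ± 0.05 in the brain, as the contig did, and by -0.33 ± 0.11 in the fat body, where the test again did not pass (edgeR adjusted p = 0.091). Summed this way, 4.54% of 18139 components were called for age in the fat body.

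For T-complex protein 1 subunit beta, the age difference of the listed form was not seen in the component. Its component holds 15 contigs, and summed over all of them the old-minus-young difference in the fat body was 0.04 ± 0.17, against 1.17 ± 0.29 for the listed form i2. The share of i2 in the component was 21.1% ± 8.0 (SD, n = 8) in young and 44.6% ± 11.4 in old fat bodies. The form i4, 10674 bases long against 10764 for i2, took 70.2% ± 7.2 in young and 40.5% ± 20.6 in old fat bodies. The component as a whole had medians of 211 and 217 CPM in young and old fat bodies and 264 and 281 CPM in young and old brains. Only i2 of the 15 contigs is described, so what the other forms encode is not given. Whether the component joins several genes cannot be told from these data.

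For dnaJ homolog subfamily B member 6 in the brain, the listed form and the component again differed. The component of 4 forms differed with age by -0.06 ± 0.10 there, against -1.43 ± 0.30 for the listed form i3, which held 12.9% ± 5.1 (SD, n = 8) of the component in young and 4.92% ± 1.71 in old brains. The form i4 held 23.7% ± 5.3 in young and 32.7% ± 4.6 in old brains, and i1, the main brain form, held 59.2% ± 3.6 and 54.1% ± 2.6. For the fat body the component difference was 0.56 ± 0.21 (edgeR adjusted p = 0.13), with component medians of 165.5 CPM in young and 261 CPM in old queens.

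The beta-1 contig and the 67B2-like pair kept part of their age difference when summed, and each sum includes the listed forms themselves. The beta-1 component of 3 forms differed by -0.78 ± 0.31 in the fat body, against -1.66 ± 0.29 for the listed form. That form held 42.4% ± 16.2 (SD, n = 8) of the component in young and 22.5% ± 9.2 in old fat bodies, while i2 held 53.6% ± 14.3 and 72.5% ± 7.9. The unlisted beta-1 forms i2 and i3 differed by -0.40 ± 0.41 and -0.32 ± 0.67. The 67B2-like component of 3 forms differed by 0.86 ± 0.28, and its unlisted form i2 by -0.24 ± 0.53. The zeta component differed by -0.56 ± 0.12, but it holds the same counts as the contig, so it is no separate check. All of these contain the contrast that chose the contigs and carry no test.

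**Figure D2:**
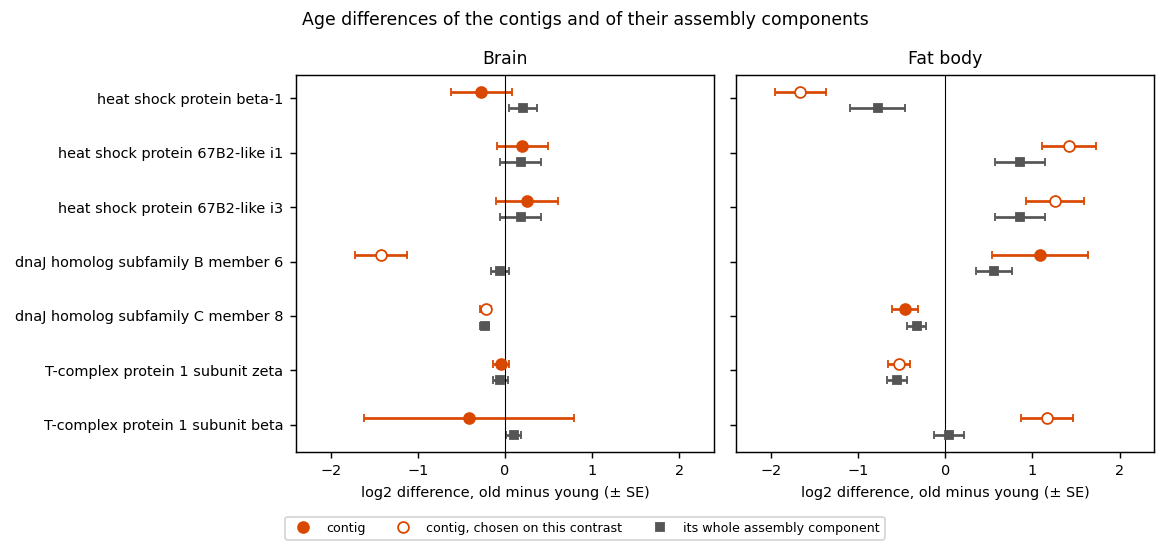
Log2 difference, old minus young (± SE), in the brain and the fat body for each contig (circles, open where that contrast chose the contig) and for the summed counts of its component (squares). In the fat body the T-complex protein 1 subunit beta contig lies at 1.17 and its component at 0.04, and in the brain the dnaJ homolog subfamily B member 6 contig lies at -1.43 and its component at -0.06.

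The tissue comparison asked which contigs differed between fat body and brain, averaged over both ages, a contrast that is orthogonal to the age differences. 6 of 7 passed the test, 5 higher in the fat body and 1 lower, where edgeR called 65.2% of 48253 contigs (25.2% higher and 40% lower). Since a contig must be expressed in a tissue to be listed there, the listed contigs are the closer yardstick. Of the 1000 tested contigs from the fat body age table of the authors, 58.7% were higher in the fat body and 22.7% lower, and of the 84 listed for the brain, 40.5% were higher and 36.9% lower. The median tissue difference was 1.25 over the 7 contigs, -0.39 over all contigs, 0.76 over the contigs listed for the fat body and 0.28 over those listed for the brain.

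DnaJ homolog subfamily B member 6 had the largest tissue difference, 2.62 ± 0.34 on the log2 scale (edgeR adjusted p = 5.8e-08), and was higher in the fat body in 14 of 16 queens. T-complex protein 1 subunit zeta was higher by 1.25 ± 0.07 (adjusted p = 5.4e-15) and in all 16 queens, with every fat body above every brain. The beta-1 contig was higher by 1.504 ± 0.233 (adjusted p = 1.3e-06) and in 15 of 16 queens, and its summed component by 0.98 ± 0.18 (adjusted p = 1.3e-05). The subunit beta contig was higher by 1.96 ± 0.66 (adjusted p = 0.0097) in 14 of 16, and by 3.01 ± 0.94 with the queen as a replicate block, while its summed component differed by -0.16 ± 0.10 and did not pass (adjusted p = 0.15).

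The 2 forms of 67B2-like went opposite ways between tissues. The form i3 was higher in the fat body by 1.24 ± 0.25 (edgeR adjusted p = 5.8e-05) in 15 of 16 queens. The form i1 differed by -0.51 ± 0.21 (adjusted p = 0.036) and was lower in the fat body in 11 of 16, a call that was lost without any 1 of 7 queens (O-426, O-603, O-796, O-829, Y-102, Y-134 and Y-453; adjusted p up to 0.081) and a value that lies at -0.11 relative to the median of all contigs. Summed, the 67B2-like component differed by 0.38 ± 0.19 (adjusted p = 0.063). DnaJ homolog subfamily C member 8 differed by 0.15 ± 0.08 and did not pass (adjusted p = 0.11), although its summed component did, at 0.28 ± 0.06 (adjusted p = 7.9e-05), where 75.2% of components were called. The C8 contig itself passed without queen O-482 (0.18, adjusted p = 0.041) or Y-102 (0.22, adjusted p = 0.027).

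These tissue values depend on the scaling. With library size as the only scaling, an alternative added after the data had been seen, the median of all contigs moved from -0.39 to -1.40 and the share of calls that were higher in the fat body from 38.7% to 19.4%. The contigs moved with that median. The subunit zeta contig lay 1.65 above the median of all contigs with TMM and 1.64 above it with library size alone, heat shock protein beta-1 1.90 and 1.89, and dnaJ B6 3.01 and 2.96. In absolute terms dnaJ C8 turned to -0.87 (edgeR adjusted p = 1.1e-09), and beta-1 (0.49, adjusted p = 0.054), subunit beta (0.97, adjusted p = 0.17) and 67B2-like i3 (0.20, adjusted p = 0.44) no longer passed. With that scaling 4 of 7 passed, subunit zeta and dnaJ B6 higher and 67B2-like i1 and dnaJ C8 lower.

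**Figure D3:**
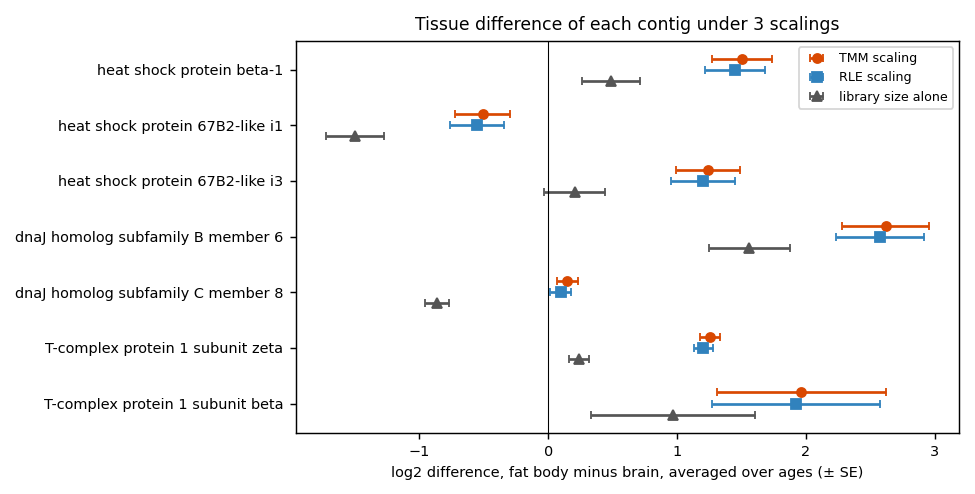
Log2 difference, fat body minus brain averaged over ages (± SE), for each contig with TMM scaling, RLE scaling and library size alone. Library size alone moves all 7 contigs to the left by a like amount, so dnaJ homolog subfamily C member 8 goes from 0.15 to -0.87 while dnaJ homolog subfamily B member 6 stays right of 0 at 1.56.

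The age classes gave different tissue values, listed here without tests because each shares libraries with the choice. The beta-1 contig was higher in the fat body by 2.17 ± 0.34 in young and 0.84 ± 0.32 in old queens. DnaJ B6 was higher by 1.34 ± 0.46 in young and 3.89 ± 0.51 in old queens. The 67B2-like form i1 stood at -1.13 ± 0.30 in young and 0.12 ± 0.30 in old queens, and i3 at 0.71 ± 0.35 and 1.77 ± 0.36. Subunit zeta stood at 1.48 ± 0.11 and 1.03 ± 0.11.

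The forms within a component also differed between tissues. A test of each contig against the rest of its component over all 32 libraries (edgeR's diffSpliceDGE, added after the data had been seen) called 17.8% of 26898 contigs (6.71% higher and 11% lower in the fat body than the component). Its values, here and in the next paragraph, are natural logs and not log2. The test called 2 of the 6 contigs it could test. These were the subunit beta form i2 (1.51 more toward the fat body than its component, adjusted p = 0.00025) and the dnaJ B6 form i3 (1.19, adjusted p = 0.00038). The contigs of beta-1 (0.39, adjusted p = 0.45), dnaJ C8 (-0.06, adjusted p = 0.995) and the 67B2-like forms i1 (-0.59, adjusted p = 0.26) and i3 (0.63, adjusted p = 0.19) did not pass. With the queen as a replicate block i3 passed as well (0.68, adjusted p = 0.029). The zeta contig has no other form.

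In the subunit beta component, the form i7 held 25.0% ± 5.3 (SD, n = 8) of young and 22.4% ± 3.5 of old brains. In the fat bodies it held 0.054% ± 0.152 of young and 0.785% ± 1.438 of old ones (-4.81 as a natural log, edgeR adjusted p = 4.2e-20). In the beta-1 component, the form i3 held 44.4% ± 10.0 of young and 44.9% ± 7.4 of old brains but 3.96% ± 2.86 and 5.01% ± 2.67 of the fat bodies (-2.18, adjusted p = 9.3e-10). In the dnaJ B6 component, the main brain form i1 fell short of its component's tissue difference (-0.75, adjusted p = 0.026). These shares differ between tissues by more than the spread between queens, and none of the 3 forms is in the described set.

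**Figure D4:**
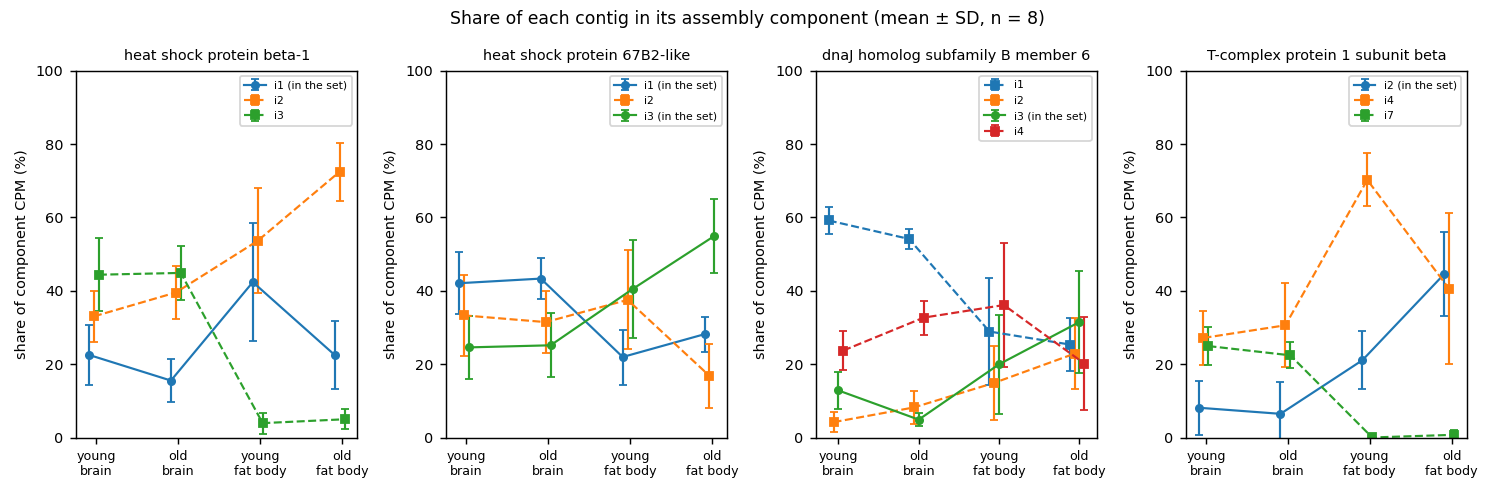
Share of component CPM (%) of the forms that reach 20% in any group, as the mean ± SD of 8 libraries for young brain, old brain, young fat body and old fat body (solid lines: contigs in the described set; dashed: other forms of the component; lines only join the points of a form). The subunit beta forms i2 and i4 lie apart in young fat bodies, at 21.1% and 70.2%, and within their spread of each other in old ones, at 44.6% and 40.5%.

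Per 1000 bases, the scale on which levels of different contigs can be compared, subunit zeta and heat shock protein beta-1 stood together at the top in young fat bodies, with means of 68.4 and 68.2 CPM per 1000 bases. In old fat bodies zeta (47.6) and dnaJ B6 (46.4) led, followed by the 67B2-like form i3 (33.7) and beta-1 (21.6). In brains of both ages zeta led the 7 contigs (24.6 in young and 23.3 in old) and subunit beta was last (2.04 and 1.48). This ranks contigs and not genes, since zeta is its whole component and most others are 1 form of several. In young brains the unlisted dnaJ B6 form i1, 1363 bases long, averaged 64.4 CPM against 57.6 CPM for zeta, 2344 bases long. The subunit beta contig has 10764 bases, and its whole component averaged 268 CPM in young brains. Zeta and beta-1 in young fat bodies, and zeta and dnaJ B6 in old ones, differed by less than the SD between libraries.

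The contigs differed in how much their own levels, apart from those of their components, varied among queens of a group. The pooled SD of log2 CPM within groups was 0.18 for zeta and 0.20 for dnaJ C8, both below the median of contigs of like level (0.35 and 0.37), at percentiles 5.8 and 8.0. It was 0.61 and 0.69 for the 67B2-like forms i1 and i3, 0.66 for beta-1 and 1.05 for dnaJ B6. Subunit beta reached 2.38, percentile 96.6 of its like, and that spread came from the brains, where the SD was 3.36 in young and 3.28 in old queens against 0.65 and 0.57 in the fat bodies. The SD of the dnaJ B6 contig was 1.68 in young fat bodies, where the lowest library held 60 counts and the highest 1331. The subunit beta component ran from 234 to 303 CPM in young brains, while the share of i2 ran from 0% to 17.3%. In young fat bodies the dnaJ B6 component ran from 88.0 to 217.5 CPM and the share of i3 from 2.89% to 41.6%. The SDs of both contigs therefore include how reads were split among forms.

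The 2 tissues of a queen were compared by correlating the deviations of each contig from its group mean over 16 queens. None of the 7 correlations passed the permutation test (100000 resamples within age, two-sided, adjusted over 23824 contigs), where 12.5% of contigs did. For heat shock protein beta-1 the correlations were r = 0.24 and rho = 0.20 (permutation p = 0.38 and 0.45, adjusted p = 0.71 and 0.77), with both tissues on the same side of the mean in 9 of 16 queens. The 67B2-like form i1 had r = 0.23 and rho = 0.31 (permutation p = 0.36 and 0.25, adjusted p = 0.69 and 0.60) and 10 of 16 queens on 1 side. The other 5 lay between -0.13 for subunit beta and 0.06 for dnaJ B6 in r and between -0.28 for dnaJ C8 and 0.17 for the 67B2-like form i3 in rho. Their permutation p-values for r ran from 0.64 to 0.98, adjusted p = 0.87 to 0.99. The median r over all contigs was 0.19. Without the 2 queens farthest from the median brain deviation, r was 0.18 for beta-1 and 0.17 for 67B2-like i1, while that of subunit beta moved from -0.13 to -0.39, that of 67B2-like i3 from 0.04 to -0.27 and that of zeta from 0.03 to -0.10.

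**Figure D5:**
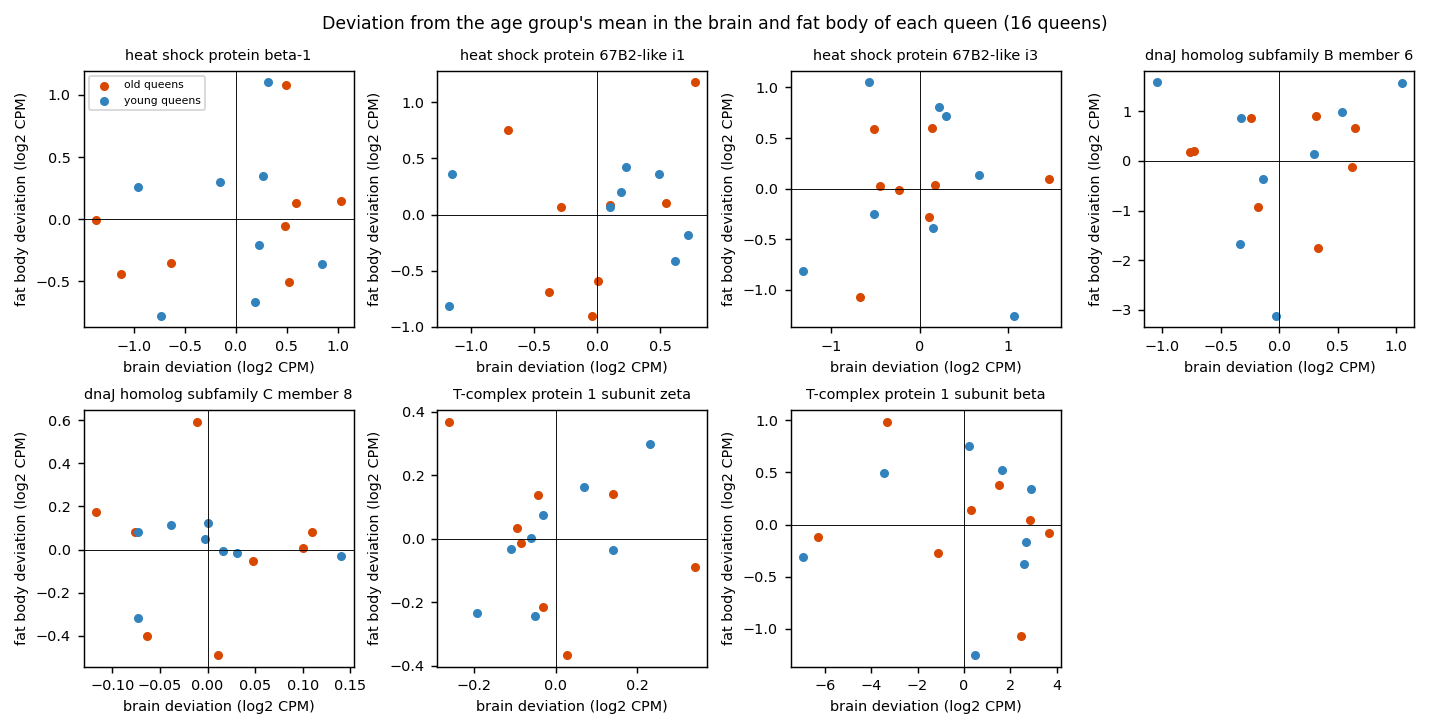
Deviation of each contig from the mean of its age group, in log2 CPM, in the brain (x axis) and the fat body (y axis) of each of 16 queens (8 old, 8 young). The points spread over all quadrants, and the highest r is 0.24, for heat shock protein beta-1.

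The contig most like each member over the 32 libraries was sought among 593 named contigs of other components (592 for the 67B2-like pair), by the root mean square (RMS) difference of centred log2 CPM. All of these contigs are themselves age-listed. Subunit zeta was closest to IST1 homolog (0.20 against its own RMS variation of 0.67), and dnaJ C8 to nuclear RNA export factor 1-like (0.15 against 0.28). Beta-1 was closest to calcium uptake protein 3 (0.62 against 1.15) and dnaJ B6 to a probable methylmalonate-semialdehyde dehydrogenase (1.03 against 1.67). The 67B2-like form i1 was closest to tumor protein p63-regulated gene 1-like (0.64 against 0.78), i3 to croquemort-like (0.64 against 1.03) and subunit beta to acyl-CoA synthetase family member 2 (2.07 against 2.89).

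Other proteostasis contigs named in the age tables give the surroundings of the set. Of 4 further chaperone contigs with an ant hit, 3 could be tested. Prefoldin subunit 3 and prefoldin subunit 6, parts of the complex that feeds the TRiC chaperonin, stood beside subunit zeta. In young fat bodies prefoldin 3 averaged 84.65 ± 14.96 CPM (SD, n = 8) against 58.1 ± 4.7 CPM in the old, and prefoldin 6 averaged 51.5 ± 9.0 and 34.4 ± 6.1 CPM. Their age differences of -0.54 ± 0.12 and -0.58 ± 0.14 are close to -0.53 ± 0.12 for zeta, and the same contrast listed them, so they are no independent evidence. In the brain prefoldin 3 differed by -0.10 ± 0.10 and prefoldin 6 by -0.03 ± 0.09, neither past the test (edgeR adjusted p = 0.9998 for each). Both were higher in the fat body averaged over ages, by 1.03 ± 0.08 (edgeR adjusted p = 1.4e-12) and 0.83 ± 0.09 (adjusted p = 6.3e-10). A further contig is named heat shock 70 kDa protein cognate 4, after the constitutive Hsp70 partner of J-domain proteins. It averaged 5.22 ± 5.11 CPM in old fat bodies and under 0.6 CPM in the other groups, levels that do not bear out a constitutive Hsp70. It was listed for the brain but did not pass the count filter for age there. In young fat bodies it averaged 0.37 ± 0.62 CPM. Its fat body age difference of 3.84 ± 1.14 did not pass the test (edgeR adjusted p = 0.13). That value sets old fat bodies against a group near the floor, so it is not read. Of 8 chaperone contigs with hits outside the ants none passed the count filter.

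Of 22 contigs named for the proteasome or ubiquitin, the system that degrades what chaperones cannot refold, 19 could be tested for tissue, and 15 were higher in the fat body and 3 lower, with a median of 1.15. Over all contigs 25.2% were higher and 40% lower, and over those listed for the fat body 58.7% were higher, with a median of 0.76. In the fat body 16 of 17 had a lower level in old queens, with a median of -0.53 against 0.01 over all contigs. The fat body age table picked all of these contigs on the same libraries, so neither their direction nor a count of calls is read. E3 ligase CBL-B stood at 1.21 ± 0.25, proteasome maturation protein at -0.70 ± 0.15 and small ubiquitin-related modifier 3 at -0.54 ± 0.12 in log2 difference, old minus young. The ligase CHIP, which binds Hsp70 and Hsp90 and tags their clients, averaged 51.0 ± 6.8 CPM (SD, n = 8) in the fat bodies of young queens and 37.0 ± 4.3 CPM in those of old queens. For age in the brain 0 of 18 passed, where 0% of all contigs did.

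Summed levels of cell type markers in the fat bodies, given as ranges over 8 libraries with no test, stood as follows beside these results. The fat body's own list of 3 contigs, which transferrin dominates, ran from 70.9 to 2697 CPM in young and from 1075 to 8486 CPM in old fat bodies. In the brains that list ran from 117 to 339.5 CPM in young and from 140 to 462 CPM in old queens. The summed gut list of 4 contigs, 2 of them maltase 2-like and 1 an antichymotrypsin matched by its name, ran from 78.8 to 582 CPM in young and from 111 to 1924 CPM in old fat bodies, its chymotrypsin-2-like contig being at or near 0. The haemocyte list, the croquemort-like contig alone, ran from 98.0 to 244 CPM in young and from 234 to 459 CPM in old fat bodies. The gland list, a venom dipeptidyl peptidase 4 alone, ran from 54.3 to 113 CPM and from 106 to 287 CPM. The muscle list of 2 contigs ran from 2.404 to 29.25 CPM and from 1.214 to 7.504 CPM. The brain neuron list of 3 contigs, of which neuroligin-1-like was as high in the fat body as in the brain, ran from 148 to 218 CPM and from 83.7 to 169 CPM. The glia list of 1 contig ran from 31.5 to 44.8 CPM and from 23.0 to 33.5 CPM, the photoreceptor list of 1 contig stayed at or below 1.57 CPM, and no germline marker was matched. The part of these cells in the age differences of the chaperone contigs was not tested.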

How the data were processed

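RNA of 32 tissue libraries was measured as counts per contig of a de novo assembly. The deposited counts are whole numbers per contig with no scaling, per the file headers. The tools named in the submitters' processing notes, with no role stated, are RSEM 1.3.0, Bowtie and Bowtie2, beside DESeq2 1.2.10, FastQC 0.11.5 and Trimmomatic 0.36. Which assembler was used is not given in these sources. RSEM shares reads between similar contigs, so counts of the forms of a component can be estimates. The authors' deposited tables of age differences hold a mean normalised signal, a log2 fold change with its error, a test score and p-values, per the file headers. They supplied the names and the choice of contigs, and their positive log2 values mean higher in young queens.

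The members and lists were chosen with earlier results of these data known. All 7 contigs of the rule are named, with 1 most similar contig each. Tests used edgeR 4.0.16 in R 4.3.3 (quasi-likelihood, TMM, filterByExpr with minimum count 10 and minimum total count 15, Benjamini-Hochberg adjustment over all contigs tested, threshold 0.05), on the 16 libraries of a tissue for age and all 32 for tissue. Log2 CPM took a prior count of 2. Shares are given for contigs with at least 1000 counts in all. The scripts were tested on simulated counts. Alternatives were DESeq2 1.42.0, RLE scaling, no filter, 1 fit of all libraries, counts summed per component, the queen as a replicate block and leaving out each queen. Library size alone and the test of forms were added after the data had been seen. Brain and fat body of a queen share its number in the labels, and their deviations correlated across contigs at r = 0.402 to 0.494, against at most 0.0975 between queens, with all 16 matching best, so the numbers pair the samples. Libraries are separate queens. No genome was used, so no sequence or position is given.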

Additional observations from a re-analysis of the deposited data

Results flagged for a closer look

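Of the 28 groups of 8 libraries checked (7 contigs in 4 groups), 3 held a library set apart from the rest of its group by more than Dixon's critical value, and chance flags about 1 group in 20. Gaps and ranges were taken on log2(CPM + 0.1), while the levels below are in CPM. DnaJ homolog subfamily C member 8 stood at 46.1 CPM in the young fat body of queen Y-333, below the next library at 56.6 CPM, a gap of 0.642 of the group's range. Heat shock protein beta-1 stood at 45.1 CPM in the old fat body of queen O-269, above the next at 23.5 CPM, a gap of 0.591. The 67B2-like form i3 stood at 21.2 CPM in the old brain of queen O-603, above the next at 9.12 CPM, a gap of 0.601.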

How the results depend on the processing

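The age differences that chose the contigs kept their sign in all 22 alternatives. The choice was made on these same libraries, so no support is read from that. Summed components brought subunit beta in the fat body to 0.04 ± 0.17 and dnaJ B6 in the brain to -0.06 ± 0.10. The number of contigs called for age in the fat body was 179, and 1205 with DESeq2, 2135 in 1 fit of all libraries, 824 components, 978 with library size alone (15.6% of them higher in old queens, against 69.8%) and 38 without a filter. For age in the brain it was 0, 560 with DESeq2 and 4 in 1 fit of all libraries, and for tissue 31453, 50750 with DESeq2 and 93613 without a filter. Of the 2 contigs tested for age in the fat body, 1 was called in the fit of all libraries and 1 with library size alone. Leaving out a library gave 40 (without O-796) to 311 (without O-426) calls in the fat body and 0 to 1 in the brain (1 without O-469). Leaving out both libraries of a queen gave 5 to 7 of the 7 contigs for tissue. Summed components reversed 4 values: brain age of subunit beta (0.10) and beta-1 (0.21), and tissue of subunit beta (-0.16) and 67B2-like i1 (0.38). The tissue value of dnaJ C8 turned to -0.87 with library size alone, and the brain age difference of 67B2-like i3 ran from -0.093 (without O-603) to 0.44 over the libraries left out. Of the correlations, dnaJ C8 turned to -0.28 with ranks, and zeta to -0.10 and 67B2-like i3 to -0.27 without 2 queens, where r alone was computed. The tissue contrast with the queen as a replicate block gave 32589 calls and the same 6 of 7, and the paired test of forms 6607 calls and 3 of 6. It changed no other call. The causes were not tested. Outside subunit beta, each value rests on 55 to 4522 counts, and for subunit beta 3 brains held 0 or 10 counts, which limits its brain values.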
